A study of Mus musculus with 10 samples.

Results

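The hypoxia and glycolysis genes described here are 34 named genes of glucose breakdown and of the cellular answer to low oxygen, taken by symbol out of the 36144 genes of an expression table. They comprise 15 glycolytic enzymes, 5 genes of glucose or lactate transport and of the control of flux, 3 subunits of the hypoxia-inducible factors (HIF), 10 HIF targets outside glycolysis, and Gfpt2, which leads glucose carbon into the hexosamine pathway. All 34 symbols had a row. The study compared primary vascular smooth muscle cells cultured from the aortas of 8-week-old male mice that carried Myh11-Cre-ERT2 with Adamts7 overexpression, against cells from wild-type mice. RNA came from 3 overexpression and 3 wild-type mice, and chromatin accessibility (ATAC-seq) was measured in 2 mice of each genotype. Adamts7 encodes a secreted metalloprotease that cuts matrix proteins. The Myh11 promoter restricts Cre to smooth muscle, and Cre-ERT2 needs tamoxifen to act. The labels name no driver for the wild-type mice and give no tamoxifen schedule, so driver, tamoxifen and overexpression cannot be told apart. Cultures were at passages 2 to 7, with no passage stated for single libraries.

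Glycolysis splits glucose into pyruvate, which lactate dehydrogenase turns into lactate when oxygen is short or growth is fast. Oxygen sensing works through the HIF alpha subunits, which prolyl hydroxylases mark for destruction as long as oxygen is present. When oxygen falls, an alpha subunit pairs with ARNT, binds short DNA elements with the core ACGTG or GCGTG, and raises genes of glucose uptake, glycolysis, blood vessel growth and matrix hydroxylation. In smooth muscle of the vessel wall, proliferating and matrix-producing states are known for a high glycolytic rate.

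Values are TPM, transcript abundance corrected for transcript length and scaled to the same total in each library, so levels may be compared between genes. Differences are overexpression minus wild type in log2(TPM + 1), a scale on which low genes appear to change less than they do. They were tested with limma over 13131 genes that averaged 1 TPM or more. Adamts7, the overexpressed gene, stood at 98.7, 79.1 and 75.8 TPM in overexpression cultures, against 6.08, 6.18 and 8.20 TPM in wild-type cultures. Its difference was 3.45 ± 0.14 (SE; limma adjusted p = 0.000357), and a two-sided exact permutation test had p = 0.1, the lowest possible with 3 libraries a side. Both smooth muscle and endothelial markers were abundant in the cultures. The 9 smooth muscle markers summed to between 2962 and 4480 TPM in overexpression cultures and between 2536 and 2674 TPM in wild-type cultures. The 11 endothelial markers summed to between 2383 and 3936 TPM in overexpression cultures and between 4651 and 5162 TPM in wild-type cultures, and the 15 macrophage markers to between 1128 and 3597 TPM in overexpression cultures and between 471 and 701 TPM in wild-type cultures. None of these endothelial or macrophage markers was at 0 in any library. The first principal component placed overexpression replicate 3 at -0.67, against 18.6 and 39.4 for overexpression replicates 1 and 2 and -20.3 to -16.8 for wild type. In a bulk library, fewer cells of a type and less RNA per cell cannot be told apart.

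The glycolytic enzymes and the other HIF targets leaned in opposite directions in the overexpression cultures, by small amounts. Of the 15 enzymes, 10 had a difference above 0 and the median was 0.10. Of the 10 other HIF targets, 7 had a difference below 0 and the median was -0.12, but it was -0.025 over the 8 that averaged at least 5 TPM. A wider list of the HIF system and its targets, described below, did not share this lean. Of its 29 genes tested, 17 had a difference above 0 and the median was 0.05. Over all genes tested 48.3% lay above 0 and the median was -0.009. No member passed limma's adjusted threshold of 0.05, which 2 of the 13131 genes (0.0152%) did. One member, the glucose transporter gene Slc2a3, averaged under 1 TPM and was left untested. There were 11 of 33 members with an unadjusted limma p under 0.05, 6 higher and 5 lower, where 19.5% of all genes had such a p, 10.6% higher and 8.94% lower. The 3 overexpression libraries lay wholly above the wild-type libraries for 8 members and wholly below them for 7. Over all genes tested the libraries were apart for 27.2%, with overexpression above for 14.3% and below for 12.9%. All 7 enzymes that were apart were higher, and 3 of the 4 other HIF targets that were apart were lower. The members and lists were chosen with earlier results of these data known, so these counts are descriptions.

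With library quality weights 12 members passed the adjusted threshold, 7 higher and 5 lower, where 20.8% of all genes did, 11.4% higher and 9.42% lower. Without overexpression replicate 3 there were 3, Adm, Epas1 and Gfpt2, all lower, where 6.3% of all genes passed and 2.31% were lower.

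**Figure D1:**
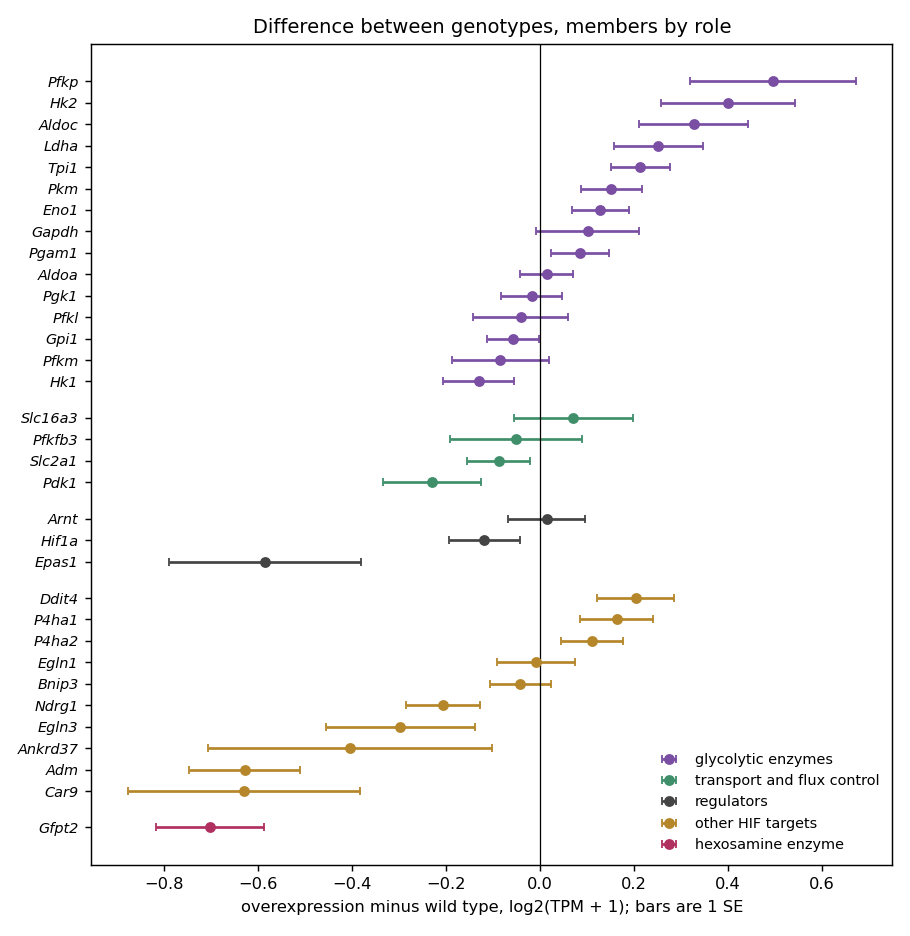
Difference between genotypes for the 33 tested members, grouped by role. The x axis is overexpression minus wild type in log2(TPM + 1), and bars are 1 SE of the limma fit. Enzymes run from 0.50 for Pfkp to -0.13 for Hk1, and the other HIF targets from 0.20 for Ddit4 to -0.63 for Car9 and Adm.

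Among the regulators, the level of Epas1 was lower in overexpression cultures and those of Hif1a and Arnt overlapped between genotypes. Epas1 encodes HIF-2 alpha, first named endothelial PAS protein for its abundance in endothelium. It lies on chromosome 17 from 86753864 to 86833410 (GRCm38.p6). Its level was 195, 139 and 263 TPM in overexpression cultures, against 305, 285 and 277 TPM in wild-type cultures. All 3 overexpression libraries were below every wild-type library, with replicate 2 the lowest and replicate 3 close to wild type. The difference was -0.59 ± 0.20 (SE; limma adjusted p = 0.197). The endothelial markers had the same order among the overexpression libraries, with sums of 3258, 2383 and 3936 TPM in replicates 1, 2 and 3, and their part in the Epas1 difference was not tested. Without overexpression replicate 2 the difference was -0.35, and without replicate 3 it was -0.81 and passed the threshold (limma adjusted p = 0.023).

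Hif1a, the alpha subunit found in most cell types, stood at 68.6, 63.3 and 73.9 TPM in overexpression cultures and at 78.5, 72.1 and 72.9 TPM in wild-type cultures, a difference of -0.12 ± 0.08 (SE). The genotypes overlapped in overexpression replicate 3. Epas1 was the more abundant alpha subunit in every library. Its share of the summed Epas1 and Hif1a TPM averaged 73.6% ± 4.71 in overexpression cultures and 79.5% ± 0.32 in wild-type cultures (SD, n = 3 each), with no overlap. Arnt, the shared partner subunit, averaged 33.8 ± 2.57 TPM in overexpression cultures and 33.5 ± 1.81 TPM in wild-type cultures (SD, n = 3 each).

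Footprints at HIF-type motifs were lower in overexpression chromatin in the authors' deposited table. A footprint score is meant to reflect how far bound protein shields a motif from the transposase, and it is not a direct measure of binding. The deposited scores merge the 2 mice of each genotype, so they carry no replicate error. All 6 motifs named for HIF1A, EPAS1, ARNT or ARNT2 had a negative change, where 335 of 879 motifs (38.1%) did and the median of all motifs was 0.11. The EPAS1 motif had a mean score of 0.275 in overexpression and 0.314 in wild type in the authors' deposited table, a change of -0.32 that ranked 12 from the lowest of the 879. The HIF1A motif had 0.253 in overexpression and 0.281 in wild type there, a change of -0.24 and rank 34. Of the 4706 EPAS1 sites searched, 786 (16.7%) were called bound in overexpression and 981 (20.8%) in wild type in the authors' deposited table. Of the 15270 HIF1A sites, 2101 (13.8%) were called bound in overexpression and 2533 (16.6%) in wild type. In the same deposited table the other HIF-type motifs, Ahr::Arnt, Arnt, ARNT::HIF1A and ARNT2, had changes between -0.22 and -0.15. The 6 were picked by name, and only EPAS1, HIF1A and ARNT::HIF1A name a HIF alpha subunit. The 6 motifs are alike in sequence and fall into 3 of the deposited motif clusters, so they are not independent. EPAS1, HIF1A and Ahr::Arnt fall into clusters that hold no motif besides these 6. Changes as low were not particular to these clusters. Among motifs outside them, SNAI2 had the lowest change of all, -0.44, and TCFL5, HES2 and HEY1 had -0.30, -0.30 and -0.28. The lower scores of Arnt, ARNT::HIF1A and ARNT2 were shared with look-alike motifs of their cluster. Its 12 other motifs are E-box motifs of factors such as MYC, MAX and CLOCK. All 12 had a negative change in the authors' deposited table, with a median of -0.21 and a range of -0.32 to -0.07. The Arnt motif had the same values there as MAX, MNT and Mlxip. Across the motifs of the deposited table, which are not independent, change and wild-type score had a rank correlation (Spearman) of -0.65, and HIF-type motifs had wild-type scores of 0.27 to 0.34. The scores do not say which gene a site belongs to.

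**Figure D2:**
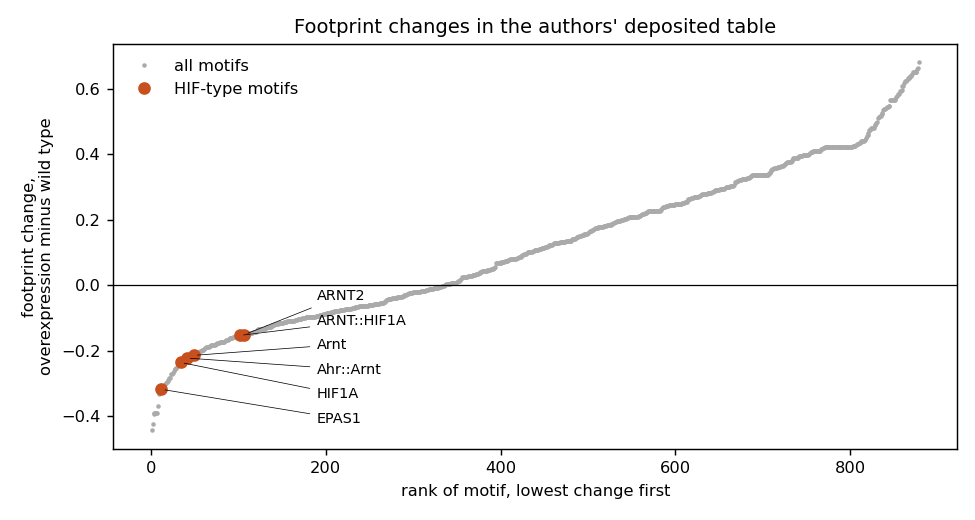
Footprint change of the 879 motifs of the authors' deposited table, in rank order with the lowest first. The y axis is overexpression minus wild type, the libraries of each genotype merged. The 6 HIF-type motifs, in orange, lie between -0.32 and -0.15 and hold ranks 12 to 107.

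The HIF core was looked for in the 250 bases before each listed start site in the RefSeq promoter table of GRCm38.p6, the same assembly as mm10, which held 31 of the 34 members. The letters searched were ACGTG and GCGTG and, for the other strand, CACGT and CACGC. Of these, ACGTG and CACGT lie inside the E-box CACGTG, which other helix-loop-helix factors bind, while GCGTG and CACGC do not. That E-box was present at 5 of 44 starts of members (11.4%) and at 8.13% of starts of genes tested. A core was present at 37 of 44 starts of members (84.1%) and at 55.1% of the 12725 starts of genes tested. It was present at 20 of 26 starts of glycolytic enzymes (76.9%) and at 9 of 9 starts of other HIF targets (100%). Median GC content was 62.2% at member starts and 59.6% at starts of genes tested, with a median of 14 CG dinucleotides at member starts and 15 at starts of genes tested. Starts of other HIF targets had medians of 69.6% and 21 CG dinucleotides, and those of glycolytic enzymes 59.8% and 13.5. All the letters searched contain a CG dinucleotide, and the part of composition in the shares with a core was not tested. A match is a run of letters and not a site shown to be bound. Epas1, Ndrg1 and Slc2a3 were not among the 31 members held and so were not searched. The promoters below belong to the 3 lower and the 3 higher members with the smallest p among those with a match, and show where the core stands. Gfpt2, Adm and Car9 are the lower ones, at chr11:49793905-49794154, chr7:110627407-110627656 and chr4:43506776-43507025 on the plus strand. Aldoc, at chr11:78322823-78323072 on the plus strand, and Pfkp and Hk2, at chr13:6648772-6649021 and chr6:82774455-82774704 on the minus strand, are the higher ones. Each runs 5′ to 3′ and ends at the base before the first listed start, with the core on either strand in capitals.
Gfpt2: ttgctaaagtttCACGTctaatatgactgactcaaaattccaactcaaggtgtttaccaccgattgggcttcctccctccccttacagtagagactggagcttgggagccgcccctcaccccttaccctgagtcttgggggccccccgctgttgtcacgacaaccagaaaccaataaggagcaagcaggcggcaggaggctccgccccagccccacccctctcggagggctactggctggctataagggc
Adm: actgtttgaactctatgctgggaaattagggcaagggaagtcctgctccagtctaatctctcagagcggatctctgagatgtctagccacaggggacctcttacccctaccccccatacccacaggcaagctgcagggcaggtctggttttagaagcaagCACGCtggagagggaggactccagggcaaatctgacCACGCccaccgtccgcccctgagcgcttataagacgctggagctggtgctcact
Car9: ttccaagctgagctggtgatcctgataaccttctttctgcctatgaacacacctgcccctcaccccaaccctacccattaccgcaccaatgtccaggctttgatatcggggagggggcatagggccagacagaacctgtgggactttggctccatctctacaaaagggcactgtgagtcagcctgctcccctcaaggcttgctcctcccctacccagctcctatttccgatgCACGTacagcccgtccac
Aldoc: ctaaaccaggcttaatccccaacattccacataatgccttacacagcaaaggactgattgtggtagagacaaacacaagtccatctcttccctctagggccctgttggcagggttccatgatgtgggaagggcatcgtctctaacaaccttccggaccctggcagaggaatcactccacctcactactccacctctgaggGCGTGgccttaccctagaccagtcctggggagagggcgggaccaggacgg
Pfkp: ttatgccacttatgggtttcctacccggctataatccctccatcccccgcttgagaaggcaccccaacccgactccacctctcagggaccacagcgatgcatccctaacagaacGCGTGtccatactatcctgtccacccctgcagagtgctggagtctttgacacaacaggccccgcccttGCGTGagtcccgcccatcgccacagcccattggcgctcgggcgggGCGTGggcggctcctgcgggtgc
Hk2: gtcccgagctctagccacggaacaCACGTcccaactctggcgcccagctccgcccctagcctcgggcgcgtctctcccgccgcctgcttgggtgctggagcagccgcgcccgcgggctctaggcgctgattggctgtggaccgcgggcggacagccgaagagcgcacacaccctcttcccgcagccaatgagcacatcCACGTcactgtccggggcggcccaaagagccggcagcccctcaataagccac
Pfkp held 3, Adm and Hk2 held 2, and Gfpt2, Car9 and Aldoc held 1. The first base of the core lay 18 bases before the start in Car9 and 238 bases before it in Gfpt2. Tpi1, the higher member with the smallest p, is not shown because no core was found in its window, which says only that these letters are not there.

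Glucose enters the cell through GLUT transporters. Slc2a1, the gene of the widely expressed GLUT1 and a HIF target, stood at 33.3, 32.9 and 32.4 TPM in overexpression cultures, against 33.4, 36.8 and 34.8 TPM in wild-type cultures. The libraries were apart, with overexpression lower, but by a margin of less than 1 TPM (-0.09 ± 0.07 SE; limma adjusted p = 0.51). Slc2a3, the gene of the high-affinity GLUT3, was at or under 1.51 TPM in every library. Slc16a3, which encodes the lactate exporter MCT4, averaged 6.58 ± 0.80 TPM in overexpression cultures and 6.21 ± 0.60 TPM in wild-type cultures (SD, n = 3 each), with overlap. Pfkfb3, whose product makes the fructose bisphosphate signal that speeds glycolysis, averaged 10.6 ± 1.76 TPM in overexpression cultures and 10.96 ± 1.27 TPM in wild-type cultures, also with overlap. Pdk1, a kinase that closes the entry of pyruvate into the citric acid cycle and a HIF target, stood at 11.2, 12.4 and 11.3 TPM in overexpression cultures, against 12.5, 13.4 and 15.5 TPM in wild-type cultures. Its overexpression libraries were all below wild type (-0.23 ± 0.10 SE; limma adjusted p = 0.275), and the difference was -0.15 without wild-type replicate 3.

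**Figure D3:**
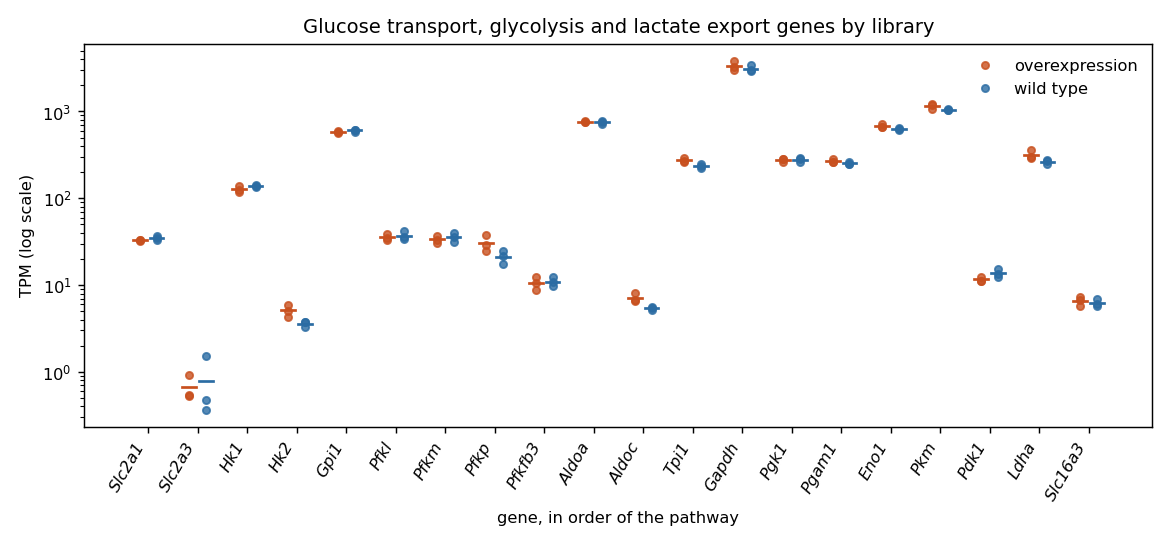
TPM of the transport, enzyme and flux control genes in each library on a log scale, in order of the pathway. Points are libraries and lines are group means of 3, with overexpression left of wild type. Gapdh and Pkm are the most abundant, and Hk2 and Aldoc are far below Hk1 and Aldoa.

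Some enzymes of glycolysis, Gapdh and Pkm above all, were very abundant messages in these cultures. Their summed level was 7574, 8447 and 7692 TPM in overexpression cultures, against 7691, 7303 and 7251 TPM in wild-type cultures, or 0.757% to 0.845% of all TPM in overexpression and 0.725% to 0.769% in wild type. The sums overlapped. Gapdh, the enzyme that yields the first NADH, stood at 3000.4, 3776 and 3254 TPM in overexpression cultures and at 3460.2, 2972 and 2905 TPM in wild-type cultures, with overlap and a difference of 0.10 ± 0.11 (SE). Leaving out a library gave Gapdh differences from 0.010 without overexpression replicate 2 to 0.18 without wild-type replicate 1. It was of rank 22 by mean TPM among all genes.

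Before the splitting of the sugar, the less abundant isoforms were higher in overexpression cultures and the abundant ones overlapped between genotypes. Hk2, the hexokinase isoform of growing and insulin-responsive cells, stood at 5.05, 5.97 and 4.28 TPM in overexpression cultures, against 3.29, 3.74 and 3.77 TPM in wild-type cultures. Every overexpression library was higher, with a difference of 0.40 ± 0.14 (SE; limma adjusted p = 0.203). Hk1, the housekeeping isoform, averaged 128 ± 10.996 TPM in overexpression cultures and 139 ± 4.56 TPM in wild-type cultures (SD, n = 3 each), with overlap. Pfkp, the platelet-type phosphofructokinase of the committed step, stood at 28.9, 38.3 and 24.7 TPM in overexpression cultures, against 17.7, 24.6 and 21.5 TPM in wild-type cultures. The groups just failed to touch, between overexpression replicate 3 and wild-type replicate 2, and the difference was 0.50 ± 0.18 (SE; limma adjusted p = 0.202), or 0.33 without overexpression replicate 2. Pfkl and Pfkm, the liver and muscle types, averaged 35.8 ± 2.86 and 33.5 ± 2.90 TPM in overexpression cultures and 36.9 ± 4.17 and 35.7 ± 3.89 TPM in wild-type cultures. Pfkp made up 30.6% ± 6.44 of the 3 phosphofructokinase messages in overexpression cultures and 22.6% ± 2.60 in wild-type cultures (SD, n = 3 each), and these shares overlapped. Gpi1, which turns glucose phosphate into fructose phosphate, had a difference of -0.06 ± 0.06 (SE).

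At the aldolase step, which splits the sugar, the minor isoform was also the higher one. Aldoc, the gene of the brain-type aldolase, stood at 6.67, 8.03 and 6.50 TPM in overexpression cultures, against 5.50, 5.53 and 5.21 TPM in wild-type cultures, with a difference of 0.33 ± 0.12 (SE; limma adjusted p = 0.201). Aldoa, the muscle-type isoform, averaged 762 ± 9.95 TPM in overexpression cultures and 755 ± 30.9 TPM in wild-type cultures, so Aldoc was 0.92% ± 0.12 of both messages in overexpression and 0.71% ± 0.04 in wild type (SD, n = 3 each). Tpi1, which interconverts the products of that split, was the enzyme gene with the smallest p. It lies on chromosome 6 from 124810586 to 124814158 and stood at 272, 287 and 263 TPM in overexpression cultures, against 225, 238 and 246 TPM in wild-type cultures. All overexpression libraries were higher, by 0.21 ± 0.06 (SE; limma adjusted p = 0.154).

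At the end of the pathway Eno1, Pkm and Ldha were higher in every overexpression library than in any wild-type library. Pgk1 and Pgam1, the kinase and the mutase before them, had differences of -0.02 ± 0.065 and 0.08 ± 0.06 (SE) and overlapped. Eno1, an enolase, stood at 670.2, 724 and 660.3 TPM in overexpression cultures, against 609, 628 and 641 TPM in wild-type cultures (0.13 ± 0.06 SE). The minor enolase Eno2, the neuronal isoform, named after its values were seen, went the other way, with a share of the 3 enolase messages of 0.83% ± 0.23 in overexpression and 1.24% ± 0.17 in wild type (SD, n = 3 each) and no overlap. Pkm, the pyruvate kinase gene, stood at 1193, 1210.2 and 1079 TPM in overexpression cultures, against 1063, 1040.4 and 1028 TPM in wild-type cultures (0.15 ± 0.06 SE). Its spliced forms, M1 and M2, are not separated in gene totals. Ldha, the lactate dehydrogenase subunit that favours lactate, stood at 297, 362 and 289 TPM in overexpression cultures, against 249.7, 268 and 275 TPM in wild-type cultures. Its difference was 0.25 ± 0.10 (SE; limma adjusted p = 0.216), and 0.15 without overexpression replicate 2. Ldha, the more abundant subunit, was 71.8% ± 3.75 of the Ldha and Ldhb messages in overexpression cultures and 66.6% ± 1.24 in wild-type cultures (SD, n = 3 each), with no overlap. Overexpression replicate 2 was the highest library for Pfkp, Hk2, Aldoc, Tpi1, Eno1, Pkm and Ldha. It was also the lowest for the sum of the endothelial markers and the highest for that of the smooth muscle markers. On the first principal component it lay farthest from wild type. The part of any of these in the enzyme differences was not tested. Several enzymes have processed pseudogenes with near-identical sequence. Of 12 such rows in the table, 2 exceeded 1 TPM in a library, Pgk1-rs7 with up to 3.31 TPM in overexpression and 8.08 TPM in wild-type cultures and Eno1b with up to 1.35 TPM in overexpression and 0.918 TPM in wild-type cultures. The division of reads between copies was not tested.

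**Figure D4:**
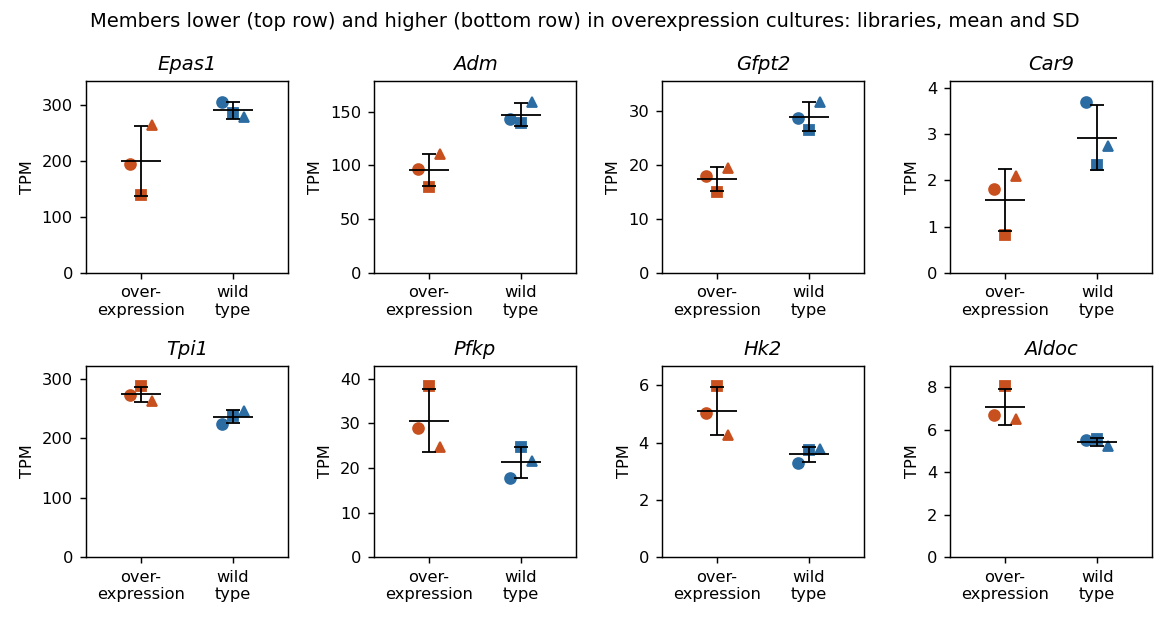
TPM of 8 members in each library, with the mean and SD of 3 in black and overexpression left of wild type. Circles, squares and triangles are replicates 1, 2 and 3. Epas1, Adm, Gfpt2 and Car9, in the top row, are lower in all 3 overexpression libraries, and Tpi1, Pfkp, Hk2 and Aldoc, in the bottom row, are higher in all 3.

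Outside glycolysis, the HIF target with the smallest p was Adm. Adm encodes adrenomedullin, a peptide that widens vessels and is made by endothelial and smooth muscle cells. It lies on chromosome 7 from 110627657 to 110629820. Its level was 96.2, 80.1 and 110.3 TPM in overexpression cultures, against 143, 139.6 and 159 TPM in wild-type cultures. The groups were well apart, with a mean of 95.5 ± 15.1 TPM in overexpression and 147 ± 10.6 TPM in wild type (SD, n = 3 each). The difference was -0.63 ± 0.12 (SE; limma adjusted p = 0.128). Without overexpression replicate 3 it was -0.74 and passed the threshold (limma adjusted p = 0.0117). The order of the overexpression libraries was that of the endothelial marker sums, whose part in the Adm difference was not tested.

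Another 3 targets were lower and 1 was higher in the overexpression cultures at an unadjusted p under 0.05 or with libraries apart. Car9, a membrane carbonic anhydrase and a widely used hypoxia marker, stood at 1.82, 0.815 and 2.09 TPM in overexpression cultures, against 3.71, 2.34 and 2.74 TPM in wild-type cultures (-0.63 ± 0.25 SE; limma adjusted p = 0.229). These levels are low, and the gap between the groups was narrow. Without overexpression replicate 2 its difference was -0.40. Egln3, an oxygen-sensing hydroxylase that HIF itself induces, stood at 6.93, 4.60 and 6.85 TPM in overexpression cultures, against 7.23, 7.42 and 8.35 TPM in wild-type cultures (-0.30 ± 0.16 SE), and without overexpression replicate 2 its difference was -0.13. Ndrg1, a stress-response gene raised by hypoxia, stood at 84.4, 80.4 and 91.3 TPM in overexpression cultures, against 91.2, 100.1 and 105 TPM in wild-type cultures. It overlapped by a hair in overexpression replicate 3 and wild-type replicate 1 (-0.21 ± 0.08 SE; limma adjusted p = 0.215). Ddit4, which restrains the growth kinase mTORC1, went the other way, with 18.7, 18.3 and 17.1 TPM in overexpression cultures, against 15.9, 16.0 and 14.6 TPM in wild-type cultures (0.20 ± 0.08 SE; limma adjusted p = 0.238).

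The remaining targets overlapped between genotypes. P4ha1 and P4ha2, the catalytic subunits of the prolyl hydroxylase that collagen needs to fold, leaned higher. P4ha1 stood at 137, 122 and 147 TPM in overexpression cultures and at 123, 117 and 122 TPM in wild-type cultures (0.16 ± 0.08 SE). P4ha2 averaged 58.1 ± 2.82 TPM in overexpression cultures and 53.8 ± 1.85 TPM in wild-type cultures (SD, n = 3 each). Egln1, the main oxygen sensor of the HIF alpha subunits, averaged 36.9 ± 3.29 TPM in overexpression cultures and 37.1 ± 1.43 TPM in wild-type cultures. Bnip3, a mitophagy receptor, averaged 32.7 ± 0.40 TPM in overexpression cultures and 33.7 ± 1.15 TPM in wild-type cultures. The ankyrin repeat gene Ankrd37 was barely detected, at 0.517 to 1.49 TPM in overexpression cultures and 1.04 to 2.88 TPM in wild-type cultures.

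Gfpt2 had the smallest p of the 33 genes tested. It encodes an isoform of the enzyme that opens the hexosamine pathway, which makes the sugar donor for protein glycosylation. It lies on chromosome 11 from 49794155 to 49838620. Its level was 17.999, 15.03 and 19.4 TPM in overexpression cultures, against 28.7, 26.4 and 31.8 TPM in wild-type cultures. The groups were far apart, with a mean of 17.5 ± 2.23 TPM in overexpression and 29.0 ± 2.69 TPM in wild type (SD, n = 3 each). The difference was -0.70 ± 0.11 (SE; limma adjusted p = 0.128). Without overexpression replicate 3 it was -0.78 and passed the threshold (limma adjusted p = 0.0163). The order of the overexpression libraries was again that of the endothelial marker sums, whose part in the Gfpt2 difference was not tested. Its paralog Gfpt1 was higher in all overexpression libraries, though replicate 1 exceeded wild type by under 1 TPM, at 42.1 ± 3.43 TPM in overexpression and 38.2 ± 0.80 TPM in wild type. Gfpt2 made up 29.4% ± 3.99 of both messages in overexpression cultures and 43.1% ± 1.83 in wild-type cultures (SD, n = 3 each), with no overlap.

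Of the next enzymes of the hexosamine pathway, 9 genes besides Gfpt2 were tested and none passed limma's adjusted threshold. At an unadjusted p under 0.05 there was 1 (11.1%, beside 19.5% of all genes), Uap1, which makes the finished UDP-sugar, at 49.3 ± 0.95 TPM in overexpression and 41.6 ± 1.02 TPM in wild type (SD, n = 3 each; difference 0.24 ± 0.06 SE). Ogt, which attaches the sugar to proteins, had -0.17 ± 0.08 (SE) and Mgea5, which removes it, -0.04 ± 0.08 (SE). Nagk, which salvages the sugar, was at 80.6 ± 6.01 TPM in overexpression cultures and 80.4 ± 2.04 TPM in wild-type cultures.

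**Figure D5:**
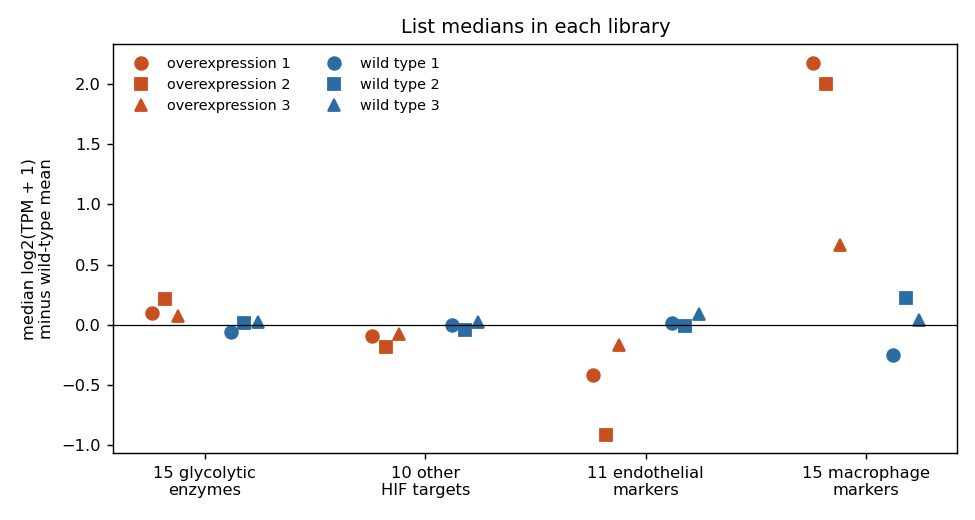
Median over each list, in each library, of log2(TPM + 1) minus the wild-type mean of the gene. Colours are genotypes, shapes are replicates, and overexpression stands left of wild type. The glycolytic enzymes lie at 0.07 to 0.21 in overexpression and -0.06 to 0.03 in wild type, and the other HIF targets at -0.19 to -0.07 in overexpression and -0.04 to 0.02 in wild type, while the endothelial and macrophage lists spread much more widely.

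Taken library by library, the glycolytic enzymes had median deviations from wild type of 0.10, 0.21 and 0.07 in overexpression replicates 1, 2 and 3, against -0.06, 0.01 and 0.03 in wild type. The median of the other HIF targets was -0.09, -0.19 and -0.07 in overexpression replicates 1, 2 and 3, against -0.006, -0.04 and 0.02 in wild type. Overexpression replicate 2 was farthest from wild type in both groups of genes and replicate 3 nearest. The medians of the endothelial markers had the same order, with -0.42, -0.92 and -0.17 in overexpression replicates 1, 2 and 3, against 0.01, -0.01 and 0.09 in wild type. The medians of the smooth muscle markers had it too, on the higher side, with 0.47, 0.56 and 0.18 in overexpression replicates 1, 2 and 3, against 0.07, 0.03 and -0.05 in wild type. Those of the macrophage markers did not, with 2.18, 2.00 and 0.66 in overexpression, against -0.25, 0.22 and 0.04 in wild type. Their part in the differences of the members was not tested.

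Wider lists of each pathway gave no call either. Of 26 other glycolytic and pyruvate genes, 18 were tested, none passed limma's adjusted threshold, and 4 were higher and 1 lower at an unadjusted p under 0.05, with a median of 0.07. That is 27.8%, beside 19.5% of all genes, of which 10.6% higher and 8.94% lower. Pfkfb4, which like Pfkfb3 makes the activating fructose bisphosphate, stood at 7.55, 8.43 and 4.95 TPM in overexpression cultures, against 4.29, 2.38 and 2.79 TPM in wild-type cultures (0.94 ± 0.23 SE; limma adjusted p = 0.131). Pdha1, a subunit of pyruvate dehydrogenase, averaged 113 ± 13.3 TPM in overexpression cultures and 87.3 ± 4.08 TPM in wild-type cultures (0.37 ± 0.09 SE). Bsg, the chaperone of lactate transporters, and Ldhb were the most abundant and had 0.04 ± 0.06 and -0.10 ± 0.07 (SE). Hk3, the hexokinase of myeloid cells, named after its values were seen, stood at 8.90, 8.20 and 2.57 TPM in overexpression cultures, against 1.24, 1.84 and 1.96 TPM in wild-type cultures (1.37 ± 0.38 SE). It had the library order of the macrophage sums, 3597, 2918 and 1128 TPM in overexpression replicates 1, 2 and 3, whose part in the Hk3 difference was not tested.

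Of 33 further genes of the HIF system and its targets, 29 were tested, with a median of 0.05, none past limma's adjusted threshold, and 5 higher and 1 lower at an unadjusted p under 0.05. That is 20.7%, close to the 19.5% of all genes, of which 10.6% higher and 8.94% lower. A difference above 0 was seen for 17 of the 29, so this list did not lean lower as the other HIF targets did. Cited2, which competes with HIF for its coactivator, was the lower one, at 152 ± 11.4 TPM in overexpression cultures and 186 ± 9.56 TPM in wild-type cultures (SD, n = 3 each; difference -0.29 ± 0.07 SE). Plod2, a collagen lysyl hydroxylase, stood at 87.1, 111 and 80.0 TPM in overexpression cultures, against 70.5, 66.8 and 63.8 TPM in wild-type cultures (0.45 ± 0.12 SE; limma adjusted p = 0.142). P4hb, the partner subunit of P4ha1 and P4ha2, averaged 899.9 ± 56.5 TPM in overexpression cultures and 785 ± 25.4 TPM in wild-type cultures (0.20 ± 0.07 SE). Bnip3l, the mitophagy receptor related to Bnip3, had -0.01 ± 0.07 (SE).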

How the data were processed

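Libraries were grouped by genotype label, with replicates numbered as the mice in the titles, and the labels give 1 batch. The authors deposited gene-level TPM, from kallisto per the labels, and the submitters' processing notes name mm10. Each column sums to 1000000. No source used here gives read number, annotation or versions, so depth is unknown. TPM are relative to the library total, and kallisto divides reads shared by similar transcripts. Per the file headers, the authors' deposited motif table holds, in BINDetect layout, a mean footprint score per genotype, counts of sites searched and bound, a change on a log2 scale and a p-value. The motif table merges the mice of a genotype, and its change was turned here to overexpression minus wild type.

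limma 3.58.1 (R 4.3.3) was run on log2(TPM + 1) of genes averaging 1 TPM or more (eBayes with trend, two-sided, Benjamini-Hochberg over all genes tested, threshold 0.05). Adamts7 was also given an exact permutation test in scipy 1.17.1 with Python 3.11.15. The fit was tested on simulated data with an even spread and with changes larger than that of any member. That test does not say how well differences as small as those of the members are found. Alternatives were another pseudocount (0.1 TPM), no filter or a mean of 5 TPM, other scalings, no trend, library quality weights, the mouse number as a block, and leaving out each library. The members and lists were chosen with earlier results of these data known. Values of every library are given for members with an unadjusted p under 0.05 or libraries apart, for the most abundant members of each role, and for Hif1a, Epas1 and Gfpt2. Of the wider lists, the 2 genes of smallest p and the 2 of highest mean are named. Sequences, positions and gene IDs are from RefSeq tables of GRCm38.p6.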

Additional observations from a re-analysis of the deposited data

How the results depend on the processing

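The count of genes called was 2 of 13131, and it was 1 with a mean of at least 5 TPM, 2728 with library quality weights (20.8% of genes), 1 with the replicate block, and between 1 and 828 when a library was left out, the highest without overexpression replicate 3 (6.3% of genes). Members called were 0, but 12 with library quality weights, and between 0 and 3 when a library was left out. The 3, without overexpression replicate 3, were Adm, Epas1 and Gfpt2. The median of the 15 glycolytic enzymes, of which a mean of 5 TPM leaves 14, stayed between 0.08 and 0.13 in all 14 alternatives. That of the 10 other HIF targets stayed between -0.16 and -0.09, except that it was -0.025 with a mean of at least 5 TPM, which leaves 8 of them. Adamts7 stayed between 3.34 and 3.63 and was called throughout. All 6 HIF-type footprints were also lower by the log2 ratio of the mean scores. Of the 33 members tested, 27 kept their direction in every alternative run on them, which were 13 for Hk2, Car9 and Ankrd37, which average under 5 TPM, and 14 for the others. The other 6 lay near 0. Egln1 was 0.0024 with median-of-ratios scaling, 0.0034 with quantile normalisation and 0.0033 with library quality weights, Aldoa was -0.020 with quantile normalisation, and with library quality weights Pgk1 was 0.0098 and Pfkfb3 0.091. Leaving out a library gave -0.064 to 0.061 for Egln1, -0.015 to 0.044 for Aldoa, -0.057 to 0.023 for Pgk1, -0.16 to 0.063 for Pfkfb3, -0.10 to 0.047 for Pfkl and -0.044 to 0.059 for Arnt. The causes were not tested. Same-numbered mice had correlations of deviations of -0.022, 0.058 and 0.018, so no pairing by number was evident. The replicate block called 1 gene and 0 members. Read number cannot be recovered from TPM, so how far depth limits the low genes Car9, Ankrd37 and Slc2a3 is unknown.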

Other observations

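The pentose phosphate pathway branches from glycolysis after hexokinase and supplies NADPH and ribose. Its 7 genes were tested, none passed limma's adjusted threshold, and 2 (28.6%) were higher at an unadjusted p under 0.05, beside 10.6% of all genes, with a median of 0.05. G6pdx, the enzyme that commits glucose phosphate to the pathway, stood at 104, 137 and 86.1 TPM in overexpression cultures, against 71.7, 76.8 and 69.9 TPM in wild-type cultures. Every overexpression library was higher, by 0.55 ± 0.15 (SE; limma adjusted p = 0.149). Pgd, the next NADPH-yielding enzyme, stood at 233, 204.9 and 224 TPM in overexpression cultures, against 182, 205.5 and 194 TPM in wild-type cultures (0.19 ± 0.07 SE; limma adjusted p = 0.232). The most abundant genes, Taldo1 and Tkt, of the branch that returns sugars to glycolysis, had -0.13 ± 0.13 and 0.08 ± 0.05 (SE).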
